A study of Mus musculus with 12 samples.

Results

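The Kruppel-like factors (KLFs) are zinc finger transcription factors, and 10 of their genes, Klf2, Klf3, Klf4, Klf6, Klf7, Klf9, Klf10, Klf11, Klf13 and Klf15, were taken by symbol from the 33641 genes listed in every sample. Levels are in TPM (transcript abundance per length, scaled to 1000000 per sample). All 10 passed the filter on low values (a 12-sample mean of 0.5 TPM or more), as did 12526 genes in all, which were tested. The samples were ventricular tissue of mice in which the human coding sequence of phospholamban (PLN), the inhibitor of the cardiac calcium pump, replaces the mouse one. R14del-PLN mice carry 1 human allele lacking arginine 14 and 1 human wild-type allele (R14del/WT), and WT-PLN mice carry human wild-type PLN only, so that controls and mutants share the knock-in, which was activated by breeding to Sox2-Cre. The labels give the strain as C57BL/6J and the age as 12 to 14 weeks, while the methods describe males of a hybrid line from 129/Sv-CP; C57Bl/6J chimeras. Polyadenylated RNA was sequenced from left ventricle (LV) and right ventricle (RV), with 3 samples in each of the 4 groups of ventricle and genotype. The labels do not state that the samples of a group came from separate mice, so p-values measure the spread between these samples.

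KLF proteins bind GC-rich and CACCC elements through 3 zinc fingers at the carboxyl end, and differ in the amino-terminal part that recruits coactivators or corepressors. KLF2 and KLF4 are known as flow-responsive factors of the endothelium, KLF15 and KLF9 as factors induced by glucocorticoid hormone, and KLF10 and KLF11 as early genes of transforming growth factor beta (TGF-beta). In heart, KLF15 is known for its control of lipid and amino acid use in cardiomyocytes and for restraint of hypertrophic growth.

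The promoters, from 250 bases before to 50 bases after the annotated start of transcription, were matched in RefSeq (GRCm38.p6) for 9 of the 10 members, all except Klf10. They are shown for the 3 members that passed the test in LV, and for Klf4, the member whose pattern over the samples was nearest to that of Klf2. Klf2 lies at chr8:72318812-72319111 on the plus strand, Klf4 at chr4:55532426-55532725 on the minus strand, Klf9 at chr19:23140976-23141275 on the plus strand and Klf15 at chr6:90462326-90462625 on the plus strand. Capitals mark matches, on either strand, to an E-box (CACGTG), the core of a cyclic AMP response element (TGACG), an AP-1 site (TGANTCA) or the MEF2 element.
Klf2: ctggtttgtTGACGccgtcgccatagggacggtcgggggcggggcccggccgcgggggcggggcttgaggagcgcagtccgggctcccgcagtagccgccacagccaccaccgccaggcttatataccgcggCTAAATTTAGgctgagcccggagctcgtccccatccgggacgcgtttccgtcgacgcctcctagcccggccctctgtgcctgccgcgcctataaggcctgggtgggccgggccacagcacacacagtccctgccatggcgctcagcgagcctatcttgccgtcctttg
Klf4: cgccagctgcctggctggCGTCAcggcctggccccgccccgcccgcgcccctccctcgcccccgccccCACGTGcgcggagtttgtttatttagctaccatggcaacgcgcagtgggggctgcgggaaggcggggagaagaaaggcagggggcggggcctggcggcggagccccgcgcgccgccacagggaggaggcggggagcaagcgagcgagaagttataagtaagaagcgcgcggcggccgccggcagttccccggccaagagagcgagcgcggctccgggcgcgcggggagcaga
Klf9: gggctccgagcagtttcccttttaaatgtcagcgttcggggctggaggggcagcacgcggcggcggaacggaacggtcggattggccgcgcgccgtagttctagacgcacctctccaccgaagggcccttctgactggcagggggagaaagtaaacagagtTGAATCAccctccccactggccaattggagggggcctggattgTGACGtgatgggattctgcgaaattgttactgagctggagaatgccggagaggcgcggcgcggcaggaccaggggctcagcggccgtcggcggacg
Klf15: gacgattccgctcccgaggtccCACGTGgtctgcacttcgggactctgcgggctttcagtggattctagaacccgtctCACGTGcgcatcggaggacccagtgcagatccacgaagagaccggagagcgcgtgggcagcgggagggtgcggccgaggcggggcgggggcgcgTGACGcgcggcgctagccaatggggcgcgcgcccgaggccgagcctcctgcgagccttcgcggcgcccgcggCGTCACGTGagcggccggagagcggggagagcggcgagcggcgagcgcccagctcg
The Klf15 promoter held 3 E-boxes, which start at -228, -172 and -3 bases from the start of transcription, and the last of them overlaps a cyclic AMP core. An E-box is the element bound by the CLOCK and BMAL1 proteins, among others. It was present in the promoters of 4 of 9 members (Klf4, Klf6, Klf11 and Klf15), against 7.24% of all 27025 promoters and 10.3% of the 9311 promoters of tested genes. The cyclic AMP core was present in 6 of 9 members, against 21.0% of all promoters and 32.0% of those of tested genes. The MEF2 element was found in Klf2, 118 bases before the start, and in 3.26% of all promoters and 1.84% of those of tested genes. The AP-1 site was found in Klf9, and in 7.93% and 4.79%. No promoter of the 9 held an exact TATAAA (the TATA box), a full glucocorticoid response element or a CArG box in this window. The shares were 14.2%, 0.226% and 1.57% of all promoters and 7.02%, 0.161% and 1.31% of those of tested genes. The variant TATAAG was not counted, and it can be read in the printed Klf2 and Klf4 sequences. The GC box (GGGCGG), which is not in capitals, was present in 8 of 9 members, in 35.9% of all promoters and in 64.8% of those of tested genes. The CACCC box (CACCC) was present in 6 of 9, against 56.7% and 62.8%, and CCAAT in 5 of 9, against 37.9% and 38.6%. The members' promoters were rich in G and C, with a median of 72.0% (58.3% to 77.7%) beside 61.0% for the promoters of tested genes. These matches are descriptions of sequence only.

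The genes lie on 10 different chromosomes, and no member had a near-identical copy at 95% identity over 80% of the shorter transcript. Exons of Klf3 and Klf7 overlap exons of predicted genes on the opposite strand, and since the use of strand in counting is not stated, reads of these pairs may not be separated.

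Some values of the whole series bear on the results. Each sample summed to 1000000 TPM, so depth was unknown, and mitochondrially encoded genes took 44.0% to 47.3% of it in WT-PLN LV, 37.3% to 51.2% in R14del-PLN LV, 48.7% to 52.8% in WT-PLN RV and 51.1% to 54.5% in R14del-PLN RV. The 4 Y-linked genes examined summed to 0.284 and 0.25 TPM in WT-PLN replicate 1 of LV and RV, and to 43.5 to 63.7 TPM in the other 10 samples, although the methods describe males. R14del-PLN RV replicate 3 carries another run number than the other 11 samples. Pln was at 1708 to 1875 TPM in WT-PLN LV, 1559 to 1716 in R14del-PLN LV, 1660 to 1963 in WT-PLN RV and 1650 to 1811 in R14del-PLN RV, values that cannot separate the alleles. The 6 cardiomyocyte markers summed to 17860 to 26670 TPM over the 12 samples, and none was called in a comparison of genotypes.

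Klf9 and Klf15 were the most abundant members in each group. In WT-PLN LV, Klf9 was at 37.7 ± 1.67 TPM (SD, n = 3), followed by Klf15 at 30.4 ± 2.43, Klf2 at 26.9 ± 11.5, Klf4 at 20.7 ± 8.07 and Klf6 at 19.1 ± 4.09 TPM. Klf3 at 10.7 ± 2.87, Klf13 at 8.30 ± 1.00, Klf10 at 5.06 ± 1.63, Klf11 at 4.06 ± 0.665 and Klf7 at 3.67 ± 0.637 TPM were lower. The samples of Klf15, Klf2, Klf4 and Klf6 overlapped between neighbours in this order, as did those of Klf3 and Klf13 and those of Klf10, Klf11 and Klf7, whereas Klf9 lay above Klf15 in every sample. WT-PLN RV had nearly the same order, in which Klf6, at 16.0 ± 3.07 TPM, and Klf4, at 14.5 ± 5.46 TPM, overlapped. In the R14del-PLN groups Klf2 and Klf4 stood lower in the order, at ranks 4 and 6 in LV and at ranks 5 and 7 in RV, and Klf6 held rank 3 in both.

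**Figure D1:**
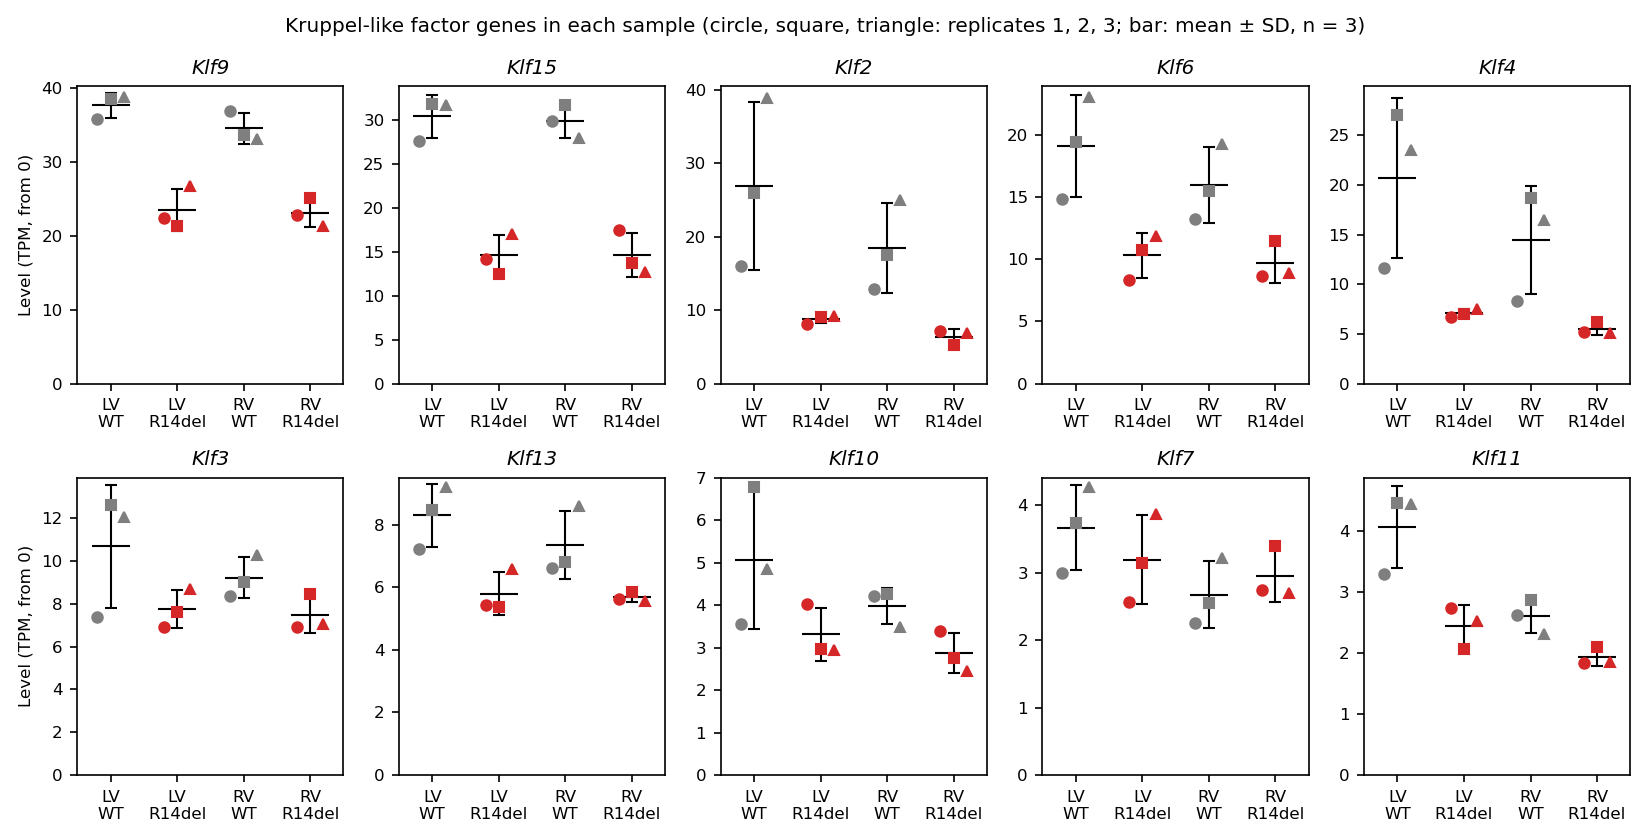
TPM (vertical axes from 0, each gene on its own scale) of the 10 KLF genes in the LV and RV of WT-PLN (grey) and R14del-PLN (red) hearts, with circle, square and triangle for replicates 1, 2 and 3 and bars for the mean ± SD of 3 samples. For Klf15, the 6 R14del-PLN samples sit between 12.5 and 17.4 TPM and the 6 WT-PLN samples between 27.6 and 31.8 TPM.

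Summed over the 10 genes, KLF transcripts were at 130 to 191 TPM in WT-PLN LV and 81.4 to 97.0 TPM in R14del-PLN LV, and at 125 to 150 TPM in WT-PLN RV and 74.4 to 84.3 TPM in R14del-PLN RV. Klf2 and Klf4 together gave 27.8 ± 5.96% of this sum in WT-PLN LV and 18.4 ± 1.20% in R14del-PLN LV (SD, n = 3), with 23.3 ± 5.67% and 14.9 ± 1.20% in RV. Klf9 and Klf15 together gave 41.7 ± 6.16% and 43.8 ± 2.09% in LV. The Klf15 to Klf9 ratio was 0.770 to 0.825 in WT-PLN LV and 0.583 to 0.638 in R14del-PLN LV. In RV it was 0.809 to 0.941 and 0.543 to 0.764, so that in neither ventricle did the genotypes overlap.

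In LV, 3 of the 10 members, Klf2, Klf9 and Klf15, fell in R14del-PLN against WT-PLN hearts (limma on log2(TPM + 1)), and none rose. A call required both an adjusted p (Benjamini-Hochberg) no higher than 0.05 and a change of 1.5-fold or more. Of the 12526 tested genes, 0.519% were called in either direction, 0.423% lower and 0.0958% higher. Unadjusted p was under 0.05, with lower values, for 9 of 10 members, against 7.85% of all tested genes. Samples of the genotypes did not overlap, with R14del-PLN lower, for 7 of 10 members against 8.47% of tested genes. All 10 members lay below 0, as did 71.7% of tested genes. The members' median log2 fold change was -0.61, and that of all tested genes was -0.09. In RV, only Klf15 of the 10 was called and it fell, against 0.271% of tested genes called, 0.2% lower and 0.0719% higher. There, 7 of 10 members had an unadjusted p under 0.05 with lower values (3.4% of tested genes), 8 of 10 did not overlap and were lower (5.79%), and 9 of 10 lay below 0 (50.9%). The median was -0.47 beside -0.0034 for all tested genes. The members were chosen with earlier results of these data known, so these shares are not a test of the family. As these are bulk samples, fewer cells of a type and less RNA per cell cannot be told apart.

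**Figure D2:**
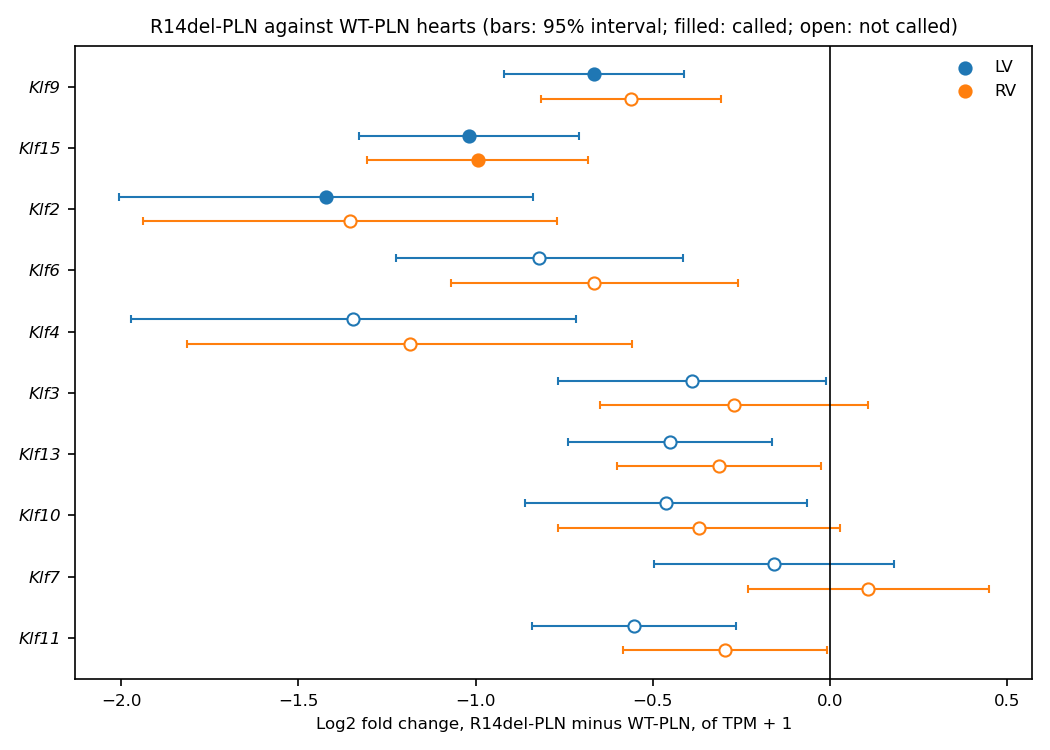
Log2 fold change of TPM + 1 (horizontal axis) between R14del-PLN and WT-PLN hearts for the 10 KLF genes (rows, by mean level) in LV (blue) and RV (orange), with 95% intervals; filled points are called and open points are not. The filled points are Klf2, Klf9 and Klf15 in LV and Klf15 in RV, and the RV value of Klf7 (0.11) is the one above 0.

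Klf15 encodes a regulator of cardiac metabolism that is induced by glucocorticoids. In LV it was at 27.6, 31.8 and 31.7 TPM in WT-PLN and at 14.2, 12.5 and 17.0 TPM in R14del-PLN samples. In RV the WT-PLN samples were at 29.9, 31.7 and 27.9 TPM and the R14del-PLN samples at 17.4, 13.7 and 12.6 TPM. Each R14del-PLN sample lay below each WT-PLN sample, and within a genotype the samples of the 2 ventricles overlapped. The log2 fold change was -1.02 (SE 0.14, limma adjusted p = 0.00553) in LV and -0.99 (SE 0.14, adjusted p = 0.00847) in RV. Among the 24 alternative settings, the replicate block and the removed fold limit add no support. The call in LV was kept under all 24, with adjusted p up to 0.0475. In RV it was kept under 22 of 24 and lost without WT-PLN RV replicate 2 (adjusted p = 0.0636) and without R14del-PLN RV replicate 3 (0.0535), the sample of the other run.

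Klf9 encodes a small KLF that acts mainly as a repressor and is likewise induced by glucocorticoids. It was at 35.8, 38.6 and 38.8 TPM in WT-PLN LV and at 22.4, 21.4 and 26.7 TPM in R14del-PLN LV. RV samples held 36.9, 33.7 and 33.1 TPM in WT-PLN and 22.8, 25.2 and 21.4 TPM in R14del-PLN samples. The genotypes were separated in both ventricles, and the WT-PLN samples of LV varied by 4.42% (SD over mean). The log2 fold change in LV was -0.67 (SE 0.12, limma adjusted p = 0.0236). In RV it was -0.56 (SE 0.12, adjusted p = 0.0772), and Klf9 was not called. The call in LV was kept under 17 of 24 settings and lost without WT-PLN LV replicate 2 or 3 or R14del-PLN LV replicate 1 or 2 (adjusted p from 0.111 to 0.137), and when only the 6 LV samples were used (0.0945). After quantile or upper quartile scaling it was lost because the change, at -0.55 and -0.56, was under the 1.5-fold limit, while adjusted p was 0.0141 and 0.0151.

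Klf2, the flow-induced factor that restrains endothelial inflammation, had the largest fold change of the members in both ventricles. It was at 16.0, 25.9 and 38.9 TPM in WT-PLN LV and at 8.16, 9.11 and 9.23 TPM in R14del-PLN LV. In RV it was at 12.9, 17.5 and 25.0 TPM in WT-PLN and at 7.11, 5.26 and 6.83 TPM in R14del-PLN samples. The groups did not overlap, and the WT-PLN samples spread widely, with replicate 1 lowest in both ventricles, while the R14del-PLN samples were close together. The log2 fold change in LV was -1.42 (SE 0.27, limma adjusted p = 0.0335). It was -1.36 (SE 0.27, adjusted p = 0.0652) in RV, which was not called. The LV call was lost without WT-PLN LV replicate 2 or 3, any R14del-PLN LV replicate or R14del-PLN RV replicate 3 (adjusted p from 0.0581 to 0.160), and with no filter on low values (0.146). Without both WT-PLN replicate 1 samples, Klf2 was called in both ventricles, and in RV at -1.58 (adjusted p = 0.00312). These were its lowest controls, so leaving them out enlarges the fall and these calls add no support.

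Klf4 encodes a factor shared by endothelium, smooth muscle and stem cells, and overlaps with KLF2 in its endothelial targets. It was at 11.6, 27.0 and 23.5 TPM in WT-PLN LV and at 6.68, 7.02 and 7.54 TPM in R14del-PLN LV. In RV it was at 8.29, 18.7 and 16.4 TPM in WT-PLN and at 5.19, 6.21 and 5.06 TPM in R14del-PLN samples. The 2 genotypes were apart in LV and in RV, and WT-PLN replicate 1 was again the lowest control. Klf4 was not called, at -1.35 (SE 0.29, limma adjusted p = 0.0698) in LV and -1.19 (SE 0.29, adjusted p = 0.159) in RV. Without both WT-PLN replicate 1 samples it was called at -1.70 in LV (adjusted p = 6.57e-05) and at -1.52 in RV (0.000234). These samples, low in Y-linked genes, were the lowest controls, and leaving them out enlarges the fall. The calls without them add no support. With the replicate number as a block Klf4 was called in both, with adjusted p of 0.0131 and 0.0359. That number was not taken as pairing the genotypes, so these calls add no support.

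Klf6 encodes a broadly expressed factor induced by tissue injury. It was at 14.8, 19.4 and 23.0 TPM in WT-PLN LV and at 8.33, 10.7 and 11.8 TPM in R14del-PLN LV. RV samples held 13.2, 15.5 and 19.3 TPM in WT-PLN and 8.65, 11.5 and 8.86 TPM in R14del-PLN samples. The genotypes were separated in both ventricles, but Klf6 was not called, at -0.82 (SE 0.19, limma adjusted p = 0.0843) in LV and -0.67 (SE 0.19, adjusted p = 0.268) in RV. It was called in LV under 6 of 24 settings, among them the scaling to the upper quartile (adjusted p = 0.0160), which also called it in RV (0.0236).

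Klf10 and Klf11 encode the TGF-beta inducible early proteins, which repress growth genes, and both were low. Klf11 was at 3.29, 4.45 and 4.44 TPM in WT-PLN LV and at 2.73, 2.06 and 2.52 TPM in R14del-PLN LV. The RV values were 2.62, 2.86 and 2.32 TPM for WT-PLN and 1.84, 2.09 and 1.86 TPM for R14del-PLN. These ranges did not overlap in either ventricle, and the log2 fold changes of -0.55 (LV, limma adjusted p = 0.109) and -0.30 (RV, 0.785) were not called. Klf10 was at 3.55 to 6.79 TPM in WT-PLN LV and 2.94 to 4.03 TPM in R14del-PLN LV, which overlapped, and at 3.49 to 4.26 and 2.46 to 3.38 TPM in RV, which did not. Its values of -0.46 and -0.37 had adjusted p of 0.420 and 0.852.

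Klf13, Klf3 and Klf7 were not called in either ventricle. Klf13, whose product partners the cardiac factor GATA4, was at 7.22 to 9.20 TPM in WT-PLN LV and 5.36 to 6.60 TPM in R14del-PLN LV, and at 6.62 to 8.60 and 5.56 to 5.84 TPM in RV. The genotypes of Klf13 did not overlap in either ventricle, at -0.45 (limma adjusted p = 0.225) in LV and -0.31 (0.734) in RV. Klf3, which encodes a repressor that recruits CtBP, overlapped between genotypes, with -0.39 (adjusted p = 0.501) in LV and -0.27 (0.995) in RV. Klf7, known from neurons and related in sequence to Klf6, was at 3.00 to 4.27 TPM in WT-PLN LV and 2.56 to 3.88 TPM in R14del-PLN LV. Its log2 differences were -0.16 in LV and 0.11 in RV, the smallest of the 10 members in each ventricle.

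**Figure D3:**
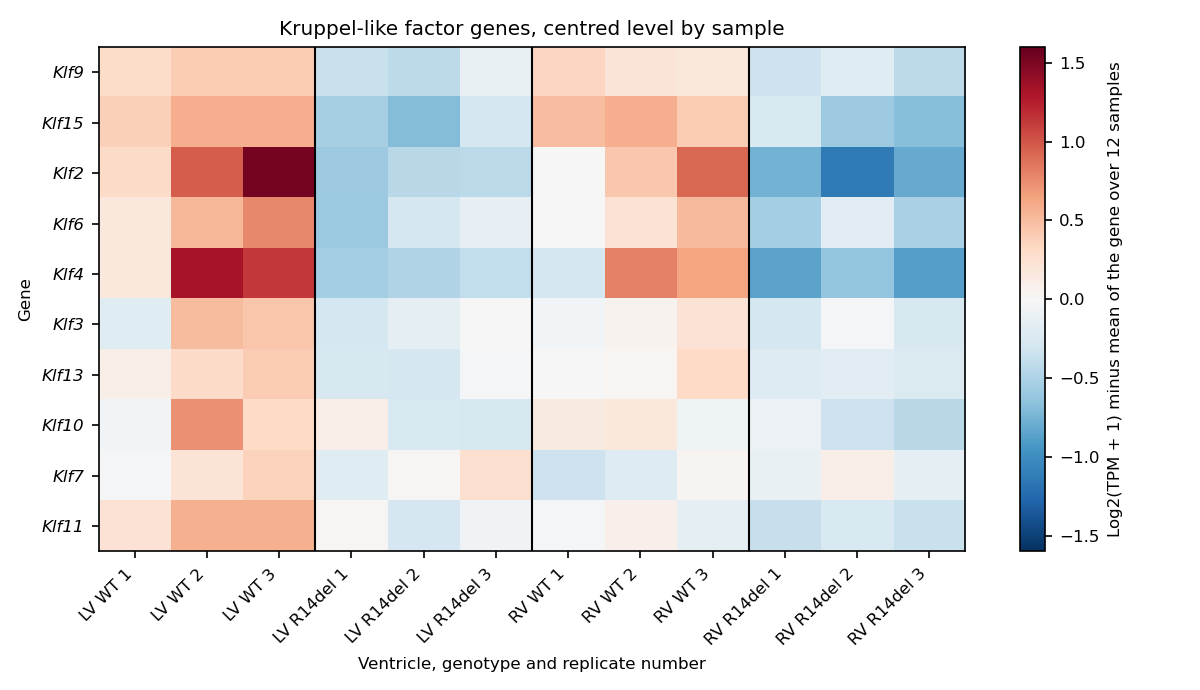
Log2(TPM + 1) of each KLF gene (rows) in each of the 12 samples (columns, by ventricle, genotype and replicate), minus the mean of that gene over the samples, with red above and blue below the mean. Klf2 and Klf4 span the widest range (SD 0.83 and 0.79), with their highest values in WT-PLN LV replicates 2 and 3, while Klf7 (SD 0.21) varies least.

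Replicate 1 of WT-PLN held the lowest value of its group for all 10 members in LV and for 6 of 10 in RV. Over all tested genes it was the lowest in 70.3% and 50.1% of them. R14del-PLN samples differed in this way too. In LV, R14del-PLN replicate 3 was the highest of its group for 8 of 10 members and 86.7% of tested genes. R14del-PLN replicate 1 was the lowest there for 5 of 10 and 66.7%, and in RV replicate 3 was for 6 of 10 and 54.6%. Leaving out a lowest control enlarges a fall, so calls gained in that way add no support. Without both WT-PLN replicate 1 samples, 6 of 10 members (Klf2, Klf4, Klf6, Klf9, Klf11 and Klf15) were called lower in LV, with 231 genes called in all, and 3 of 10 (Klf2, Klf4 and Klf15) in RV, with 88 genes. Members called varied from 1 to 6 in LV when 1 sample was left out at a time, with 6 without WT-PLN LV replicate 1 and 1 (Klf15) without WT-PLN LV replicate 2 or 3 or R14del-PLN LV replicate 1 or 2. In RV they varied from 0, without WT-PLN RV replicate 2 or R14del-PLN RV replicate 3, to 3, without WT-PLN replicate 1 of either ventricle. The direction of each member in each ventricle was kept under all alternatives in which it was tested. Changes of filter, trend, block, fold limit or the other ventricle's samples leave the fold change as it is and cannot alter a direction. Counts of settings that kept a call include the replicate block, which adds no support, and the removed fold limit, which cannot lose a call. With the replicate number as a block, which was not taken as pairing the genotypes, 5 members (Klf2, Klf4, Klf6, Klf9 and Klf15) were called in LV. In RV, 3 (Klf2, Klf4 and Klf15) were called with this block. Of the 65 genes called in LV, 53 (81.5%) were lower and 12 higher. After quantile scaling, which moved the median of all genes by 0.10, 65 were lower and 39 higher (62.5% lower), and after upper quartile scaling 67.3% were lower. The share was 93.9% with the filter at 5 TPM, 94.8% without WT-PLN LV replicate 1 and 92.6% without both WT-PLN replicate 1 samples. Of the 34 in RV, 73.5% were lower, with 58.3% when mitochondrially encoded genes were removed, 92.9% with the filter at 5 TPM and 86.4% without both WT-PLN replicate 1 samples.

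Markers of other cell types were compared beside these results. No marker of the 9 cell types examined that passed the filter was called in a comparison of genotypes. The 6 endothelial markers had a median log2 difference of 0.07 in LV and 0.19 in RV, and summed to 105.5 to 131 TPM in WT-PLN and 104 to 142 TPM in R14del-PLN LV, and to 79.1 to 95.6 and 90.3 to 120.0 TPM in RV. The endothelial sums of the genotypes overlapped in both ventricles. Of the 6 markers, 2 lay below 0 in LV and 1 in RV, and 1 in each was higher at an unadjusted limma p under 0.05. The 6 fibroblast markers had medians of -0.36 and -0.13, the 7 of smooth muscle and pericytes -0.34 and 0.17, the 6 of macrophages -0.18 and -0.04, and the 4 of atrial cardiomyocytes -2.61 and 0.07. The atrial markers varied widely within groups. They summed to 207 to 1296 TPM in WT-PLN LV and 145 to 319 TPM in R14del-PLN LV. In RV they summed to 86.3 to 871 TPM in WT-PLN and 45.6 to 521 TPM in R14del-PLN samples. The 5 red cell genes had medians of -0.62 and -0.59, with 4 of 5 lower at an unadjusted p under 0.05 in LV and 3 of 5 in RV. The shares of all tested genes were 7.85% and 3.4%. They summed to 2087 to 2316 TPM in WT-PLN and 1093 to 2142 TPM in R14del-PLN LV, and to 1461 to 1736 and 956 to 1368 TPM in RV. The 3 neutrophil genes summed to 0.367 to 13.0 TPM in WT-PLN and 0.247 to 0.813 TPM in R14del-PLN LV, with Retnlg listed at 0 in all R14del-PLN samples. The 4 lymphocyte genes, all below the filter, summed to at most 1.49 TPM in any sample. The part of these cells in the KLF values was not tested.

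Between the ventricles, no member was called. RV was below LV for all 10 members in WT-PLN hearts, as it was for 85.9% of all tested genes, and log2 differences ran from -0.48 to -0.02 with a median of -0.24 beside -0.17 for all tested genes. No gene was called there by limma (percent called 0), although 1811 (14.5%) had an unadjusted p under 0.05, 13.8% of all with RV lower, as had 2 of 10 members. With the mouse as a block, which the pairing of the WT-PLN samples allows, 12 genes were called (7 higher and 5 lower in RV), none of them a member. Klf11 was the member with the smallest p: its 3 RV samples (2.32 to 2.86 TPM) lay below the 3 LV samples (3.29 to 4.45 TPM), the one member of 10 without overlap against 25.2% of tested genes, at -0.48 (SE 0.13, adjusted p = 0.217). Klf7 was at -0.35 (SE 0.16, adjusted p = 0.340), Klf2 at -0.48 (0.397) and Klf4 at -0.48 (0.429). Klf15 was at 30.4 ± 2.43 TPM in LV and 29.8 ± 1.89 TPM in RV, with a 95% interval of the log2 difference from -0.33 to 0.29. The direction depended on the scaling, since the median of all genes moved by 0.17 with quantile scaling, 0.15 with upper quartile scaling and 0.11 without mitochondrially encoded genes, and 6, 6 and 8 of 10 members then lay below 0.

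**Figure D4:**
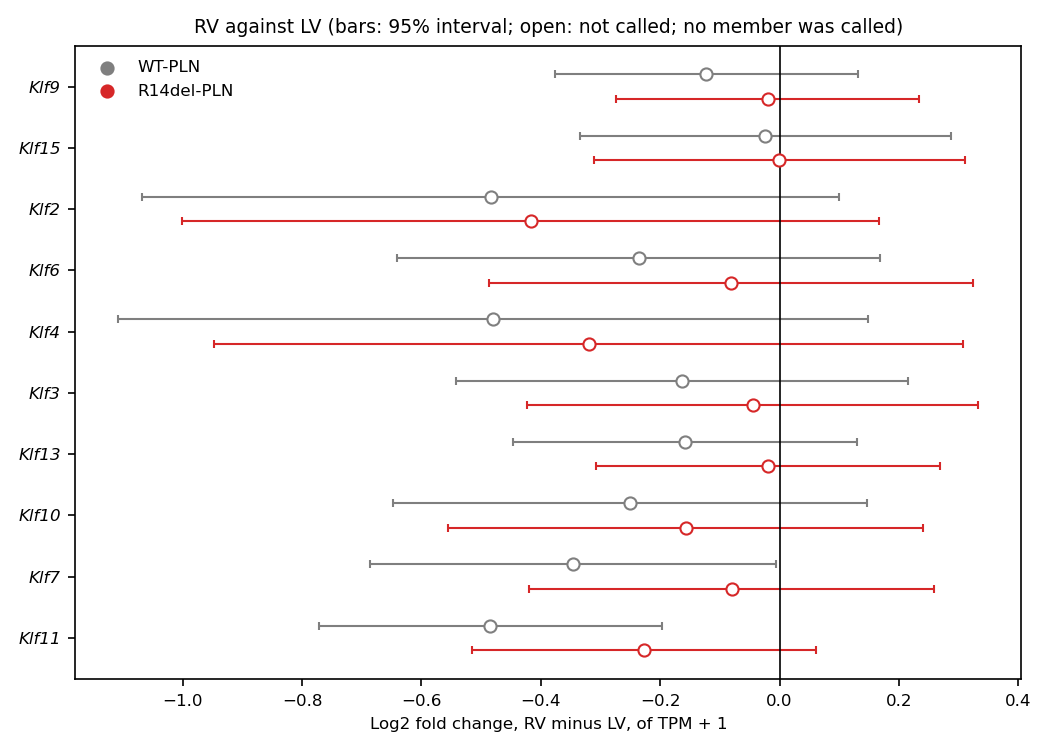
Log2 fold change of TPM + 1 (horizontal axis) between RV and LV for the 10 KLF genes (rows, by mean level) in WT-PLN (grey) and R14del-PLN (red) hearts, with 95% intervals; all points are open, since none was called. As deposited, values run from -0.48 to -0.02 in WT-PLN and from -0.42 to -0.0004 in R14del-PLN hearts, and fewer members lie below 0 under other scalings (6 and 5 of 10 after quantile scaling).

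In R14del-PLN hearts the RV minus LV differences ran from -0.42 (Klf2, limma adjusted p = 0.867) to -0.0004 (Klf15), with a median of -0.08, the same as for all tested genes. No gene was called (percent called 0), and 823 (6.57%, with RV lower in 6.07% of all) had an unadjusted p under 0.05, as had 0 of 10 members. RV lay below LV without overlap for Klf2 (5.26 to 7.11 against 8.16 to 9.23 TPM) and Klf4 (5.06 to 6.21 against 6.68 to 7.54 TPM), 2 of 10 against 8.72% of tested genes. All 10 members lay below 0, against 70.3% of tested genes, but 5 did after quantile and 4 after mitochondrially encoded genes were removed, which moved the median of all genes by 0.14. The difference between the ventricles in the effect of genotype was tested as an interaction. For the 10 members it ran from 0.02 to 0.27 (limma adjusted p = 0.9999 for each), no gene was called (percent called 0) and 127 of 12526 (1.01%) had an unadjusted p under 0.05, as had 0 of 10 members. None of the members lay below 0, against 25.7% of tested genes, but 3 did after quantile and 4 after upper quartile scaling, and their median of 0.13 was then 0.03 under each. The calls of Klf2 and Klf9 in LV and not in RV are therefore not shown to differ between ventricles. The 95% interval of the interaction was -0.76 to 0.89 for Klf2 and -0.42 to 0.46 for Klf15.

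The rest of the family was compared with the members, which were chosen with earlier results of these data known. Of 16 other SP and KLF genes in the files, 10 were below the filter, among them Klf1, the erythroid factor, and Klf5, at 0.0446 and 0.0612 TPM on average. The 6 tested were Klf12, Klf16, Sp1, Sp2, Sp3 and Sp4, of which Sp3 was highest at 9.23 TPM. None was called in either ventricle, and their median was -0.10 in LV and -0.01 in RV. Klf16 was at -0.40 (limma adjusted p = 0.353) and Sp1 at -0.22 (0.732) in LV. The genotypes of Klf16 did not overlap in LV, at 2.04 ± 0.525 TPM in WT-PLN and 1.28 ± 0.119 TPM in R14del-PLN samples. None of 9 cofactor genes was called (medians -0.10 and -0.08), and Crebbp, a histone acetyltransferase, was at -0.33 (adjusted p = 0.524) in LV and Sin3b, a corepressor scaffold, at -0.31 (0.751) between the ventricles of R14del-PLN hearts. None of 6 ubiquitin ligase genes that act on KLF proteins was called (medians 0.07 and 0.11). Wwp1, whose product degrades KLF2, was at 0.23 (adjusted p = 0.985) in RV, and Vhl at -0.26 (0.351) between the ventricles of WT-PLN hearts.

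Upstream genes were taken next. None of the 7 genes of the MEK5, ERK5 and MEF2 pathway, which relays flow to Klf2 and Klf4, was called, with medians of -0.12 in LV and -0.03 in RV. Mef2a was at -0.24 (limma adjusted p = 0.654) in LV and Map3k3 at -0.24 (0.863) between the ventricles of R14del-PLN hearts. Of 7 genes of glucocorticoid action, 4 fell in LV and 3 fell in RV, with medians of -1.20 and -0.94, and none rose. Among all tested genes, 0.423% were called lower in LV and 0.2% in RV. Tsc22d3, an anti-inflammatory glucocorticoid target, fell by 1.20 in LV (adjusted p = 0.0023) and by 1.14 in RV (0.00422) on the log2 scale. WT-PLN LV held 74.3, 104.6 and 89.5 TPM of it and R14del-PLN LV 31.5, 38.3 and 45.4 TPM, with no overlap. Per1, a clock gene also induced by glucocorticoids, fell by 1.23 and 1.05, and Zbtb16 by 1.30 and 1.26. Fkbp5, a chaperone of the receptor, fell by 1.20 in LV (adjusted p = 0.0191). Its RV means were 18.8 TPM in WT-PLN and 9.77 TPM in R14del-PLN samples. Sgk1, another induced gene of the list, overlapped between genotypes in both ventricles. Its WT-PLN and R14del-PLN means were 20.86 and 12.05 TPM in LV and 14.53 and 10.33 TPM in RV. Nr3c1, the glucocorticoid receptor itself, was at 13.1 ± 1.31 TPM in WT-PLN and 15.1 ± 3.16 TPM in R14del-PLN LV and was not called. Nr3c2, the other receptor gene of this list, was at 4.64 ± 0.722 TPM in WT-PLN and 3.35 ± 0.303 TPM in R14del-PLN LV. In RV it was at 5.12 ± 0.511 and 3.58 ± 0.270 TPM. The genotypes of Nr3c2 did not overlap in either ventricle, with R14del-PLN lower, and it was not called.

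None of 11 immediate early genes was called, but all lay below 0 in both ventricles, as did 71.7% and 50.9% of tested genes. Their medians were -1.61 and -1.42, beside -0.09 and -0.0034 for all tested genes. Unadjusted limma p was under 0.05, with lower values, for 10 of 11 in LV and 8 of 11 in RV. The shares of all tested genes were 7.85% and 3.4%. Zfp36, a destabiliser of inflammatory messenger RNAs, was at 10.3, 15.0 and 27.7 TPM in WT-PLN and at 4.23, 3.79 and 6.24 TPM in R14del-PLN LV. Dusp1, a phosphatase of MAP kinases, was at 21.9, 35.0 and 64.1 TPM in WT-PLN and at 11.8, 14.5 and 20.1 TPM in R14del-PLN LV. In both, WT-PLN replicate 1 was the lowest control, as for Klf2 and Klf4, and limma adjusted p was 0.0517 and 0.208. Of 13 tested clock genes, Per1 alone was called in each ventricle. The clock list had medians of -0.31 in LV and -0.28 in RV, beside -0.09 and -0.0034 for all tested genes. Unadjusted limma p was under 0.05 with lower values for 6 of 13 clock genes in LV and 7 of 13 in RV. It was under 0.05 with higher values for 1 of 13 in each. Arntl, which encodes BMAL1, was higher in R14del-PLN than in WT-PLN samples without overlap in both ventricles. Its means were 0.653 and 0.373 TPM in LV and 0.672 and 0.340 TPM in RV, close to the filter of 0.5 TPM. Of the 10 genes of TGF-beta signalling reported here, none was called in either ventricle, with medians of -0.24 and -0.06. Skil, a brake on SMAD proteins, was at -0.65 (adjusted p = 0.294) in LV, and Tgfb1, a ligand, was at -0.44 (0.236) between the ventricles of WT-PLN hearts.

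Target genes were examined last. Of the 5 tested endothelial targets of KLF2 and KLF4 reported here, none was called in either ventricle, with medians of -0.29 in LV and -0.15 in RV. Aqp1, a water channel, was at 122.9, 176.7 and 135.4 TPM in WT-PLN and at 95.4, 87.7 and 100.7 TPM in R14del-PLN LV. These samples did not overlap, and the log2 difference was -0.60 (SE 0.16, limma adjusted p = 0.189). Thbd, the anticoagulant receptor thrombomodulin, was at -0.57 (adjusted p = 0.217) between the ventricles of WT-PLN hearts. Of 8 genes known as targets of KLF15, 1 was called in each ventricle. It was Ctgf, a matricellular gene that KLF15 is known to repress, which fell by 1.95 in LV (adjusted p = 0.0476) and by 2.62 in RV (0.0102). The list's median was 0.0039 in LV and 0.03 in RV, and none of the metabolic targets was called.

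**Figure D5:**
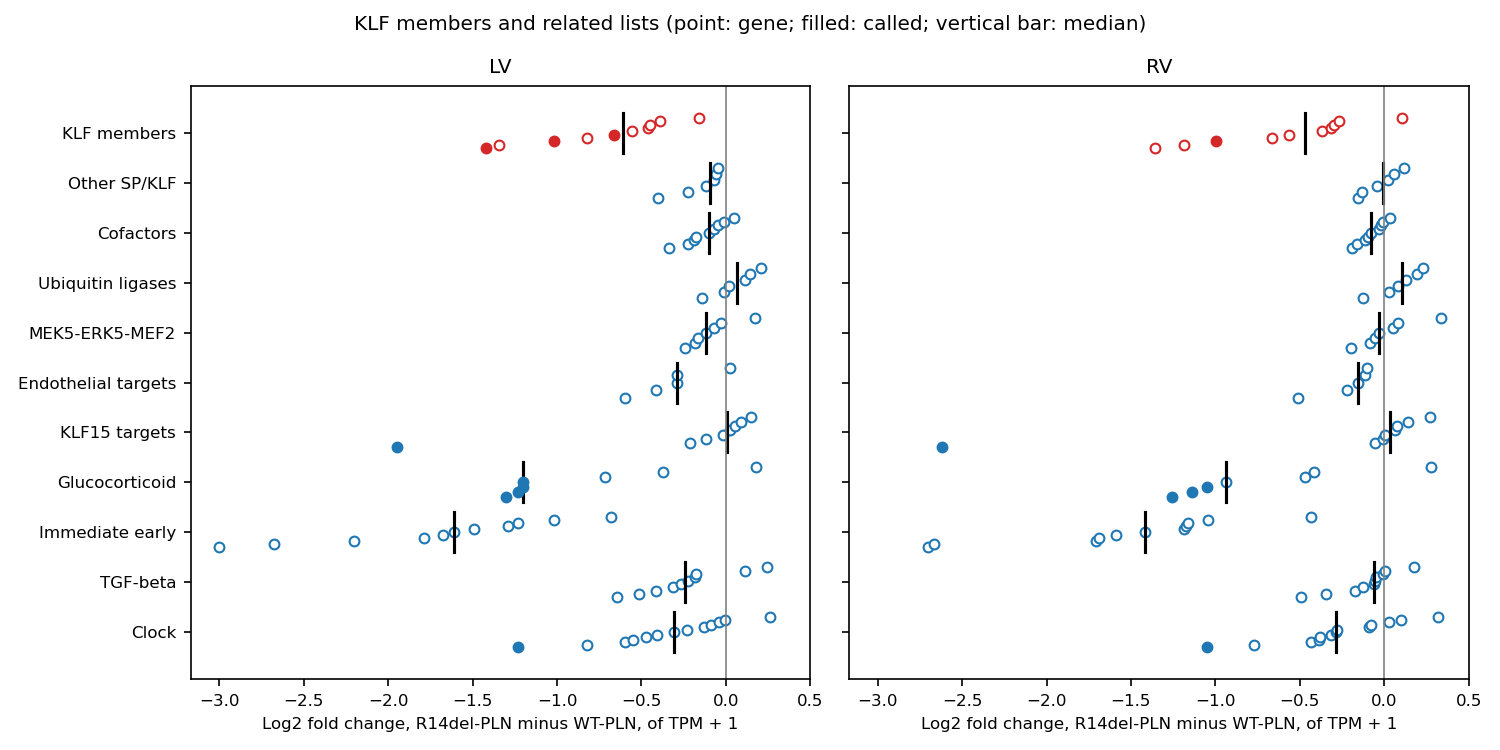
Log2 fold change of TPM + 1 (horizontal axis) between R14del-PLN and WT-PLN hearts in LV (left) and RV (right), 1 point per gene, for the KLF members (red) and 10 related lists (blue, rows); filled points are called and vertical bars are medians. Glucocorticoid genes (medians -1.20 and -0.94) and immediate early genes (-1.61 and -1.42) lie further below 0 than the members (-0.61 and -0.47). Other SP and KLF genes have medians of -0.10 and -0.01. The members and lists were chosen with earlier results of these data known.

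The genes nearest to the 3 most variable members were found by the root mean square difference of centred log2(TPM + 1) over the 12 samples, which share genotype and replicate structure. The nearest to Klf2 were Cebpb (0.22), Gfpt2 (0.23) and Dusp1 (0.24). The nearest to Klf4 were Maff (0.17), Apold1 (0.17) and Dnajb1 (0.18), and the nearest to Klf15 were Tob2 (0.15), Per1 (0.15) and Tsc22d3 (0.16). Among the members, Klf2 and Klf4 were each nearest to the other (0.27), as were Klf10 and Klf11 (0.17) and Klf3 and Klf13 (0.12), while Klf15 was nearest to Klf9 (0.23).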

How the data were processed

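The study sequenced stranded polyA RNA libraries of 12 samples, 3 in each of 4 groups taken from the labels. Mutant samples titled KO were read as R14del-PLN from their genotype label. The authors deposited TPM values (abundance per length, summing to 1000000 per sample), which were used as deposited. The methods name CLC Genomics Workbench and GRCm38. The program and annotation behind the TPM values, and strand use, are not given in the sources used here. TPM keep no depth, so no counting error could be given.

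For the 12526 genes averaging 0.5 TPM or more, log2(TPM + 1) was fitted by limma 3.58.1 (R 4.3.3) in 1 model of the 4 groups, with an intensity trend and with 8 residual degrees of freedom beside 5.15 prior ones. Fold changes on this scale understate those of low genes. Calls needed an adjusted p (Benjamini-Hochberg over all tested genes) no higher than 0.05 and a change of 1.5-fold or more. The script was tested on simulated data. Python 3.11.15, numpy 2.4.6, pandas 2.3.3, matplotlib 3.10.9 and BLAST 2.17.0 were used for the other steps.

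Deviations from group means correlated at 0.321 to 0.658 between WT-PLN LV and RV samples of one number, so these were taken as paired. The range was 0.0542 to 0.389 in R14del-PLN hearts and -0.0209 to 0.219 between genotypes, so these were not. Alternatives changed the pseudocount (0.5 or 0.1), filter (5 TPM or none), trend, scaling, block, fold limit, samples fitted and replicates.

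The members and lists were chosen with earlier results of these data known. All 10 members were named. From each other list at most 4 called genes were named, or the 2 of smallest p where none was called. Nr3c1, Nr3c2, Sgk1, Arntl and the other genes named for their level (Klf1, Klf5 and Sp3) lie outside this rule and were picked with their values known. A gene of the lists is not reported here.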

Additional observations from a re-analysis of the deposited data

How the results depend on the processing

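No member changed direction between genotypes under an alternative, though several alternatives leave the fold change as it is. Between the ventricles the direction of several members depended on the scaling. In LV the genes called, 65 as reported, were 22 with no filter, 104 after quantile and 98 after upper quartile scaling, 231 without both WT-PLN replicate 1 samples, and 19 to 153 with 1 sample left out. Members called in LV were 6 without both WT-PLN replicate 1 samples and 1 to 6 with 1 sample left out. In RV the genes called, 34 as reported, were 17 with no filter, 85 after quantile and 91 after upper quartile scaling, 72 without mitochondrially encoded genes, 88 without both WT-PLN replicate 1 samples and 14 to 48 with 1 sample left out. Members called in RV were 2 with the filter at 5 TPM, 3 after quantile and 3 after upper quartile scaling, 3 without both WT-PLN replicate 1 samples, and 0 to 3 with 1 sample left out. Between the ventricles of WT-PLN hearts, genes called were 1 with no filter, 1 after upper quartile scaling, 2 without mitochondrially encoded genes, 2 without both WT-PLN replicate 1 samples, 1 with the 6 samples alone and 0 to 4 with 1 sample left out. They were 0 to 1 between those of R14del-PLN hearts and 0 to 1 for the interaction with 1 sample left out. The filter at 5 TPM removed Klf7, Klf10 and Klf11. The causes of these shifts were not tested.

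With the replicate block, 119 genes and 5 members were called in LV and 62 genes and 3 members in RV. By the correlations, the numbers pair LV with RV samples of WT-PLN hearts and do not pair the genotypes. With the replicate block by mouse, 12 genes and no member were called between the ventricles of WT-PLN hearts, while the counts of 0 between those of R14del-PLN hearts and for the interaction stayed at 0. This block cannot be used between genotypes.

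With 3 samples a group, TPM without depth and calls in LV of Klf2 and Klf9 that 1 sample can end, whether the members not called changed cannot be read from these data. Protein and activity of the factors were not measured here.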
